A study of Mus musculus with 6 samples.

Results

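The 10 genes described here encode the heat shock protein machinery that folds proteins in the cytosol, with 1 chaperonin pair of the mitochondrion beside it. They are Hspa1a, Hspa1b, Hspa8, Hsph1, Dnajb1, Hsp90aa1, Hsp90ab1, Hspb1, Hspd1 and Hspe1. They were found by symbol among the 25124 gene rows of the deposited expression table, and all 10 were present, each as 1 row. Hspd1 and Hspe1 encode mitochondrial proteins, so 8 of the 10 are cytosolic in the strict sense.

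RNA-seq was done on macrophages that had been sorted from colonic lamina propria of C57BL/6 mice, in 3 libraries of mice with macrophage-specific overexpression of the transcription factor E4BP4 (TG) and in 3 libraries of wild type mice (WT). The mice were 8 weeks old, and both groups had colitis induced with 2.0% dextran sulfate sodium (DSS) in the drinking water for 7 days, then had 7 days of plain water and were killed on day 14, so every value below comes from tissue that had been through colitis. The promoter that drives the transgene is not given in the sources used here, and the labels do not tie libraries to single mice. The p-values therefore speak of the spread among the libraries at hand, part or all of which may be technical. The genotype field of TG replicates 2 and 3 ends the gene's name in another digit than that of replicate 1, and the groups follow the sample titles. Expression is given in TPM, a transcript abundance unit that corrects for transcript length and depth.

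Cytosolic HSP70 chaperones bind exposed stretches of unfolded protein and release them in a cycle driven by ATP. J-domain proteins such as the one encoded by Dnajb1 deliver substrates and start ATP hydrolysis, and HSP110 proteins such as the one encoded by Hsph1 exchange the nucleotide. HSP90 chaperones act later, on near-native clients such as kinases and steroid receptors. Under proteotoxic stress the transcription factor HSF1 binds heat shock elements (HSE), alternating repeats of the bases GAA and TTC, and switches on the inducible members, while Hspa8 and Hsp90ab1 are transcribed at high levels without stress.

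The promoters are shown because Hspa1a, Hspa1b and Dnajb1 differed most between the groups and because the opposed chaperonin pair shares 1 stretch of sequence. Windows from RefSeq (build GRCm38.p6) of 250 bases before the transcript start to 50 bases after it were matched by symbol for 7 of the 10 members, namely Hspa1a, Hspa1b, Hsph1, Dnajb1, Hspb1, Hspd1 and Hspe1. Hsph1, Dnajb1 and Hspd1 have 2 windows each in that source. For them only the window at the start of the expression row was searched, and the other was not. The 250 bases before the start of 5 of them follow, 5′ to 3′ on the gene's own strand, with every match to TTCNNGAA or GAANNTTC in capitals.
Hspa1a: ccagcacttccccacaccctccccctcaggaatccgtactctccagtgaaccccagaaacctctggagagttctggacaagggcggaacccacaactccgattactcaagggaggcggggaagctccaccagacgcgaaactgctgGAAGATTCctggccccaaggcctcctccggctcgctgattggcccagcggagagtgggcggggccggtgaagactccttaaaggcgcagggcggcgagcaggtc
Hspa1b: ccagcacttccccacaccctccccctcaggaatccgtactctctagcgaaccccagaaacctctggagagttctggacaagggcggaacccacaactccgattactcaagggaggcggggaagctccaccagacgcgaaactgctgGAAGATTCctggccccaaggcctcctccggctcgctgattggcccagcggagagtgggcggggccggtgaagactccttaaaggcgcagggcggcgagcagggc
Dnajb1: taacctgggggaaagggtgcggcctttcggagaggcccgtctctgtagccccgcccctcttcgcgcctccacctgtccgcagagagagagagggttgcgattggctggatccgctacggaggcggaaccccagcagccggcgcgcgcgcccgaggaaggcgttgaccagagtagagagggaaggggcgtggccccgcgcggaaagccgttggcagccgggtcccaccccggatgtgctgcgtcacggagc
Hsph1: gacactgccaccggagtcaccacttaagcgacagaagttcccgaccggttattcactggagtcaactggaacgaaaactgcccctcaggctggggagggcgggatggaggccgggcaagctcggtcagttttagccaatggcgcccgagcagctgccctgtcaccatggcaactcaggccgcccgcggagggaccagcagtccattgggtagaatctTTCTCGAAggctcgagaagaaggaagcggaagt
Hspe1: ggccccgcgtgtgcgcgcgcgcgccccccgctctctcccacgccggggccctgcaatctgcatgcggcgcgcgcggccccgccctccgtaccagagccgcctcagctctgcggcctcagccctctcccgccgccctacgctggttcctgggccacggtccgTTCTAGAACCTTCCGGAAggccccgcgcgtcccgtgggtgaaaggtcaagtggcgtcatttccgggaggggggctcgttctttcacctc

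These windows lie at chr17:34972157-34972406 on the minus strand for Hspa1a, chr17:34959239-34959488 on the minus strand for Hspa1b, chr8:83607925-83608174 on the plus strand for Dnajb1, chr5:149636337-149636586 on the minus strand for Hsph1 and chr1:55087898-55088147 on the plus strand for Hspe1. The Hspa1a and Hspa1b windows were the same at all but 3 bases, which were C44T, T47C and T249G with the Hspa1a base first and positions counted from 1 at the 5′ end of the window. Both held 1 match, 104 to 97 bases before the start. Hsph1 held 1 match 33 to 26 bases before its start, and Hspb1, whose window is not printed, held 2, at 117 to 110 and at 97 to 90 bases. Dnajb1 held none.

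In the RefSeq rows Hspe1 and Hspd1 are transcribed away from each other from starts that lie 216 bases apart, so their windows overlap. The capitals in the Hspe1 window, 89 to 72 bases before its start, are the same bases that lie 144 to 127 bases before the start of Hspd1 on the other strand. They form an unbroken run of 4 repeats. The pair of repeats TTCNNGAA or GAANNTTC, searched so that both strands are covered and matches may overlap, occurred in the 250 upstream bases of 6 of 7 members and in 12.8% of 32851 promoter windows of the same length. The run of 3 repeats, TTCNNGAANNTTC or GAANNTTCNNGAA, which contains the pair, occurred in 2 of 7 members, Hspd1 and Hspe1, and in 0.466% of windows. In the 300 bases that include those after the start it also occurred in Hsph1, 37 to 49 bases after the start, and in 0.603% of windows. The element of E4BP4 itself, searched as TTATGTAA, TTACATAA or TTACGTAA on both strands, was in none of the 7 windows at either length, against 0.931% and 1.06% of all windows. A CCAAT box (CCAAT or ATTGG) lay in 4 of 7 upstream windows and in 33.8% of all. A match describes letters and shows no bound factor, and no match says only that these letters were not in this window.

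**Figure D1:**
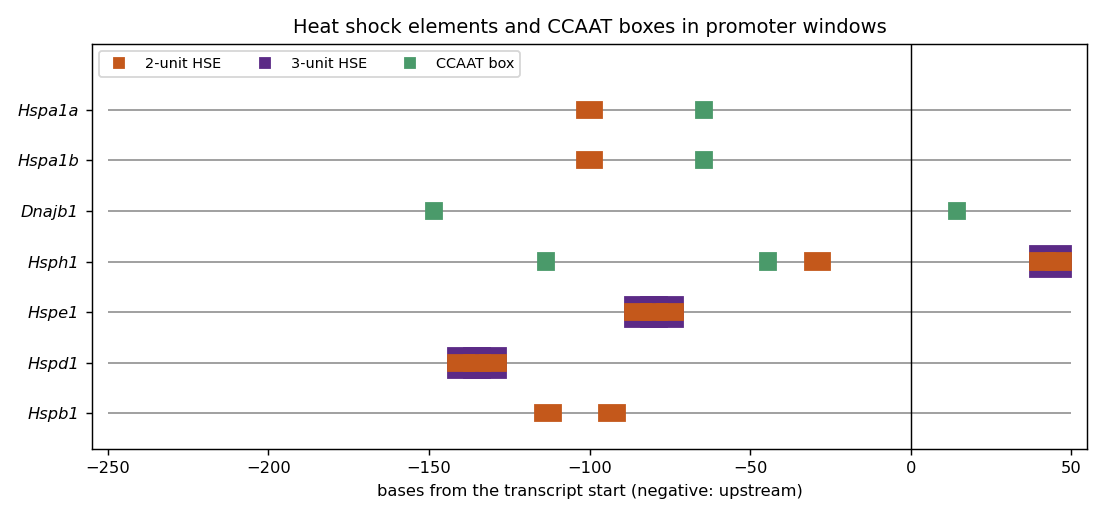
Positions of heat shock elements of 2 units (orange) and 3 units (purple) and of CCAAT boxes (green) in the promoter windows of 7 members, in bases from the transcript start, with negative values upstream. Hspa1a and Hspa1b carry their element at the same place, Hspe1 and Hspd1 show 1 shared run of elements seen from either gene, and Dnajb1 shows none.

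The libraries held 13973424 to 15063958 reads in genes, and those read counts could be recovered from the TPM and the transcript lengths. Nfil3, the gene that encodes E4BP4, stood at 133, 134 and 141 TPM in TG and at 117, 120 and 119 TPM in WT (log2 fold change 0.19 ± 0.029 SE, limma adjusted p = 0.00261). The cells carried macrophage markers at a summed 13600 TPM in each TG library and 14300 to 14400 TPM in WT, 4 of 10 being higher and 6 lower in TG. As background for the marker counts, 8.71% of the 12633 tested genes were higher in TG and 13.2% were lower. Markers of other cells were also present and none was at 0 in all libraries. Each list sum covers every gene of its list, called or not. Lower in TG were 7 of 8 tested neutrophil markers (list sum 412 to 470 TPM in TG, 1010 to 1040 TPM in WT). The same held for 8 of 10 epithelial markers (list sum 543 to 551 TPM in TG, 1010 to 1020 TPM in WT). Among fibroblast markers 4 of 6 were lower, Col1a1, Col1a2, Col3a1 and Dcn (list sum 105 to 109 TPM in TG, 149 to 151 TPM in WT). Among endothelial markers 4 of 5 were lower, Pecam1, Cdh5, Kdr and Plvap (list sum 31.3 to 35.2 TPM in TG, 48.8 to 51.3 TPM in WT). Of 7 tested T and NK cell markers Cd8a, Nkg7 and Klrk1 were higher in TG (list sum 115 to 123 TPM in TG, 104 to 112 TPM in WT). Most of that sum was Cd4, at means of 89.6 TPM in TG and 87.4 TPM in WT. Cd4, Cd3e, Cd3d and Cd3g were not called. Of 5 B and plasma cell markers Jchain was higher, at means of 204 TPM in TG and 165 TPM in WT (list sum 240 to 257 TPM in TG, 206 to 214 TPM in WT). Of 5 tested dendritic cell markers Clec9a was higher, at means of only 1.64 TPM in TG and 0.716 TPM in WT (list sum 33.5 to 34.5 TPM in TG, 29.5 to 34.1 TPM in WT). The Clec9a call was lost in 5 of 13 alternatives, without TG replicate 2 or 3 or WT replicate 1 or 2 among them (adjusted p up to 0.116), and that of Pecam1 in 7 of 14, among them without any 1 library but WT replicate 3 (up to 0.105). The part of these cells in the results below was not tested, and in bulk RNA fewer cells of a type and less RNA per cell cannot be told apart.

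Of the 10 members, 5 were higher in TG (Hspa1a, Hspa1b, Dnajb1, Hspe1 and Hsph1), against 8.71% of the 12633 tested genes, and 2 were lower (Hspd1 and Hsp90ab1), against 13.2% of tested genes, at an adjusted p below 0.05 in limma on log2(TPM + 1). The other 3 (Hspa8, Hsp90aa1 and Hspb1) were not called, so 7 of 10 were called in either direction, against 21.9% of tested genes. All 10 passed the filter of a mean of at least 1 TPM in either group. The shares of tested genes given here and below span genes of every level and were not matched to the members' levels. By mean TPM the members ranked from 59th (Hspa8) to 2280th (Hsph1) of the 12633, apart from Hspb1 at 8936th. Of the 10 macrophage markers, for comparison, 4 were higher and 6 lower. The members' median log2 fold change was 0.10, and that of all tested genes was -0.01. Every TG library lay above every WT library for the 5 genes called higher, against 17.1% of tested genes, and below every WT library for the 2 called lower, against 22.3% of tested genes, and groups without overlap made up 39.3% of tested genes in either direction. With 3 libraries against 3, the exact two-sided permutation test cannot go below p = 0.1, which is the value for each of these 7 genes. The share of higher calls among all called genes was 39.8%, and with upper-quartile scaling of the libraries it was 52.1%.

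**Figure D2:**
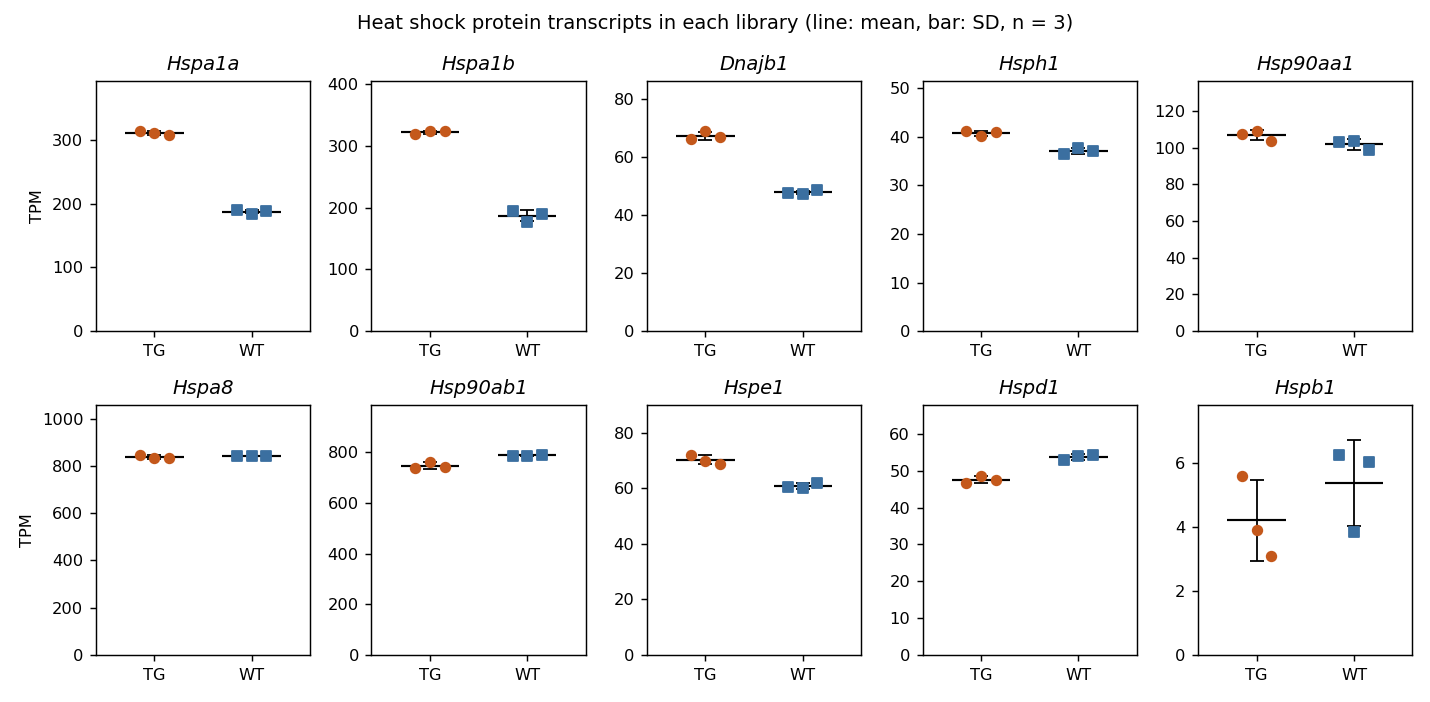
TPM of each member in each library, with TG (orange circles) left of WT (blue squares), the group mean as a line and the SD as a bar (n = 3). Hspa1a, Hspa1b and Dnajb1 show wide gaps between TG and WT, Hspa8 shows none, and Hspd1 and Hsp90ab1 lie lower in TG.

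The stress-inducible HSP70 genes Hspa1a and Hspa1b had the largest fold changes of the 10. Hspa1a, on the minus strand of chromosome 17 from 34969359 to 34972156 (mm10), stood at 314, 311 and 308 TPM in TG and at 189, 184 and 189 TPM in WT. No TG library came near a WT library, and the lowest TG library stood well above the highest WT library. The group means were 311 ± 2.98 TPM in TG and 187 ± 2.80 TPM in WT (SD, n = 3 each), a ratio of 1.66. Its log2 fold change was 0.73 ± 0.021 SE (95% interval 0.68 to 0.77, limma adjusted p = 5.82e-07), and it ranked 128th in fold change of the 1100 genes called higher.

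Hspa1b, the neighbouring copy at 34956429 to 34959238 on the same strand, stood at 319, 323 and 324 TPM in TG and at 194, 177 and 190 TPM in WT. The groups were again far apart, and the widest spread was among the WT libraries, where replicate 2 was lowest. The means were 322 ± 2.59 TPM in TG and 187 ± 9.11 TPM in WT (SD, n = 3 each), a ratio of 1.72. The log2 fold change was 0.78 ± 0.035 SE (95% interval 0.70 to 0.86, limma adjusted p = 5.37e-06), the 106th largest of the 1100.

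The products of Hspa1a and Hspa1b are near-identical proteins, and reads that fall in shared sequence can be assigned to either gene in a way that is not given in the sources used here. Their longest protein-coding transcripts in GENCODE M21, of 2967 and 2803 bases, were identical at 90.7% of aligned bases. Of all 50-base stretches of Hspa1a there, 58.8% also occurred in Hspa1b. The RefSeq transcripts of the expression rows, of 2795 and 2807 bases, were not themselves aligned. The split between the copies is therefore uncertain, and their sum is given beside them. If shared reads were discarded or counted for both copies, the sum would be affected too, which was not tested. The sum stood at 633, 634 and 632 TPM in TG and at 383, 361 and 379 TPM in WT, backed by 12935 to 23513 reads in each library. The sum's log2 fold change was 0.76 ± 0.024 SE (limma adjusted p = 1.09e-06), a ratio of means of 1.69. The ratio of Hspa1b to Hspa1a was 1.04 ± 0.018 in TG and 0.997 ± 0.034 in WT (SD, n = 3 each), the groups overlapped, and the exact two-sided permutation p was 0.2. Over the Hspa1a row the annotation also places the antisense gene Gm20481, which covers 2225 of its bases. The kit is not described as keeping strand, so reads of Hspa1a and Gm20481 cannot be told apart.

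Hspa8 encodes the constitutive HSP70 of the cytosol and was the most abundant of the 10. On chromosome 9 from 40801276 to 40805202, it stood at 848, 835 and 835 TPM in TG and at 844, 841 and 843 TPM in WT. The TG libraries lay on both sides of the WT libraries. The log2 fold change was -0.01 ± 0.013 SE, with a 95% interval of -0.04 to 0.03 (limma adjusted p = 0.807). The exact two-sided permutation p of the means was 0.4. Its sign turned to positive, with at most 0.03, under 4 of 14 alternative scalings or tests. It shared no 50-base stretch with Hspa1a.

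Dnajb1 encodes an HSP40, a J-domain protein that works with the HSP70s in the cytosol. On the plus strand of chromosome 8 from 83608175 to 83612653, it stood at 66.2, 68.8 and 66.8 TPM in TG and at 47.5, 47.3 and 48.5 TPM in WT. Its groups were separated by many times their spread. The means were 67.3 ± 1.37 TPM in TG and 47.8 ± 0.613 TPM in WT (SD, n = 3 each), a ratio of 1.41. The log2 fold change was 0.49 ± 0.032 SE (95% interval 0.41 to 0.56, limma adjusted p = 4.49e-05). Its promoter window printed above held no pair of heat shock repeats, unlike those of Hspa1a, Hspa1b and Hsph1.

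Hsph1 encodes HSP105, of the HSP110 family. On the minus strand of chromosome 5 from 149616845 to 149636336, it stood at 41.2, 40.2 and 40.9 TPM in TG and at 36.4, 37.6 and 37.0 TPM in WT. The groups did not overlap, but the gap was small. The log2 fold change was 0.14 ± 0.035 SE (95% interval 0.05 to 0.22, limma adjusted p = 0.0286). This call was lost without TG replicate 1 (adjusted p = 0.0817), TG replicate 2 (0.0583), TG replicate 3 (0.0873), WT replicate 1 (0.0761) or WT replicate 3 (0.0719), in an overall range of adjusted p from 0.00925 to 0.0873 over 14 alternatives. The fit with the replicate number as a block also lost it (0.0703).

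HSP90 is made from a pair of genes in the cytosol. Hsp90aa1, the inducible form, on chromosome 12 from 110691036 to 110696395, stood at 107, 109 and 104 TPM in TG and at 103, 104 and 98.4 TPM in WT. The TG and WT ranges overlapped by a single TG library, replicate 3, which lay just under WT replicate 2. The log2 fold change was 0.07 ± 0.032 SE (95% interval -0.0088 to 0.14, limma adjusted p = 0.191; exact two-sided permutation p = 0.2). Hsp90ab1, the constitutive form, on chromosome 17 from 45567778 to 45573261, stood at 738, 761 and 741 TPM in TG and at 786, 786 and 790 TPM in WT. Every TG library was lower than every WT library, although the fall was small beside the level of the gene. The ratio of means was 0.949 and the log2 fold change was -0.08 ± 0.016 SE (95% interval -0.11 to -0.04, limma adjusted p = 0.0128). The call was lost with upper-quartile scaling (log2 fold change -0.04, adjusted p = 0.116) and without TG replicate 3 (-0.07, 0.053), in a range of adjusted p from 4.33e-07 to 0.116 over 14 alternatives.

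Hspe1 and Hspd1 encode HSP10 and HSP60, the lid and the barrel of the mitochondrial chaperonin, and they moved in opposite directions. Hspe1, on the plus strand of chromosome 1 from 55088148 to 55091317, stood at 72.2, 70.0 and 68.8 TPM in TG and at 60.4, 60.1 and 62.1 TPM in WT. All TG libraries were above all WT libraries. Its log2 fold change was 0.21 ± 0.032 SE (95% interval 0.13 to 0.28, limma adjusted p = 0.00336). Hspd1, on the minus strand from 55077834 to 55087932, stood at 46.7, 48.7 and 47.4 TPM in TG and at 52.8, 53.9 and 54.3 TPM in WT. Here all TG libraries were below all WT libraries. Its log2 fold change was -0.17 ± 0.033 SE (95% interval -0.25 to -0.09, limma adjusted p = 0.00935). Both directions held their call in all 14 alternatives. Another annotation (GENCODE M21) places the starts of the pair differently, so that the genes overlap by 112 bases at their starts. It also lists 5 pseudogenes named after Hspd1 and 6 named after Hspe1. A share of the reads of the pair may therefore have been assigned elsewhere.

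Hspb1 encodes the small heat shock protein HSP25, which holds unfolded protein without ATP, and was the least abundant member. It stood at 5.60, 3.90 and 3.10 TPM in TG and at 6.25, 3.83 and 6.03 TPM in WT, from only 37 to 69 reads in each library. The groups overlapped and the spread within each was wide. The log2 fold change was -0.30 ± 0.21 SE, with a 95% interval of -0.79 to 0.19 (limma adjusted p = 0.361; exact two-sided permutation p = 0.3). The coefficient of variation was 30.4% in TG and 24.9% in WT.

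**Figure D3:**
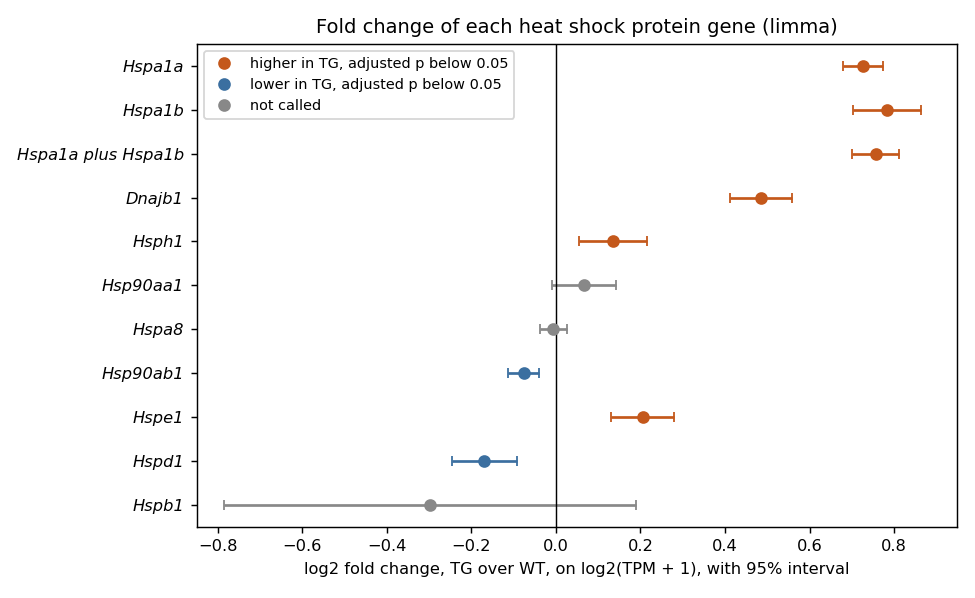
Log2 fold change of TG over WT of each member and of the summed Hspa1a and Hspa1b, on the log2(TPM + 1) scale, with the 95% interval from limma as a bar. Orange points were higher in TG, blue points lower, and grey points were not called; Hspa1a, Hspa1b and Dnajb1 lie apart from the rest, and the interval of Hspb1 is the widest.

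Within a library, scaling between libraries cancels out. The pairs compared this way were chosen after the values had been seen. The ratio of summed Hspa1a and Hspa1b to Hspa8 was 0.747, 0.760 and 0.757 in TG and 0.454, 0.429 and 0.450 in WT. The inducible HSP70s thus stood at a higher level relative to the constitutive one in every TG library, by 1.70-fold in the means. The ratio of Dnajb1 to Hspa8 was 0.0781, 0.0824 and 0.0801 in TG and 0.0563, 0.0563 and 0.0575 in WT, a 1.41-fold difference. The ratio of Hsp90aa1 to Hsp90ab1 was 0.145, 0.143 and 0.140 in TG and 0.131, 0.132 and 0.125 in WT, a 1.10-fold difference, so the groups did not overlap in this ratio although they did in the level of Hsp90aa1. The ratio of Hspe1 to Hspd1 was 1.55, 1.44 and 1.45 in TG and 1.15, 1.12 and 1.14 in WT, a 1.30-fold difference. For each of the 4 ratios every TG library lay above every WT library. For Hspe1 over Hspd1 this was fixed by the levels of both genes, whose groups were apart in opposite directions. Hspa8 differed little between the groups, so the ratios over it largely repeat the separation of Hspa1a, Hspa1b and Dnajb1. The exact two-sided permutation p was 0.1 for each ratio, the smallest that 3 against 3 allows, and is no further support. How many gene pairs of the whole table separate this way was not counted.

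**Figure D4:**
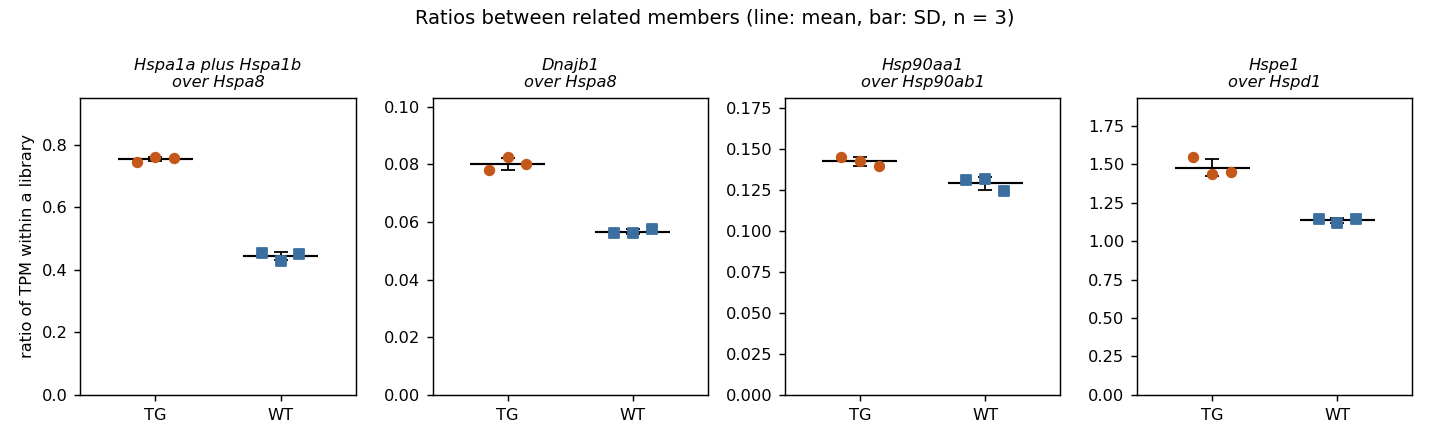
Ratios of TPM between related members within each library, with TG (orange circles) left of WT (blue squares), the mean as a line and the SD as a bar (n = 3). All 4 ratios lie higher in the TG libraries, and the widest gap is that of the inducible HSP70s over Hspa8.

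By level the members span a wide range. Among the 12633 tested genes ordered by mean TPM, Hspa8 came 59th, Hsp90ab1 71st, Hspa1b 297th, Hspa1a 306th, Hsp90aa1 801st, Hspe1 1326th, Dnajb1 1543rd, Hspd1 1759th, Hsph1 2280th and Hspb1 8936th. Within TG, no 2 neighbours in the order of levels overlapped, although Hspe1 and Dnajb1 met at 68.8 TPM. Within WT, Hspa1a and Hspa1b overlapped and no other neighbours did. Dnajb1 stood above Hspd1 in TG, at means of 67.3 TPM and 47.6 TPM. In WT it stood below Hspd1, at 47.8 TPM and 53.7 TPM.

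Summed, the 10 genes stood at 2558, 2571 and 2538 TPM in TG and at 2320, 2295 and 2318 TPM in WT. The constitutive Hspa8 and Hsp90ab1 made up 62.1% of that sum in TG and 70.5% in WT. The other 8 members together stood at 970 ± 6.55 TPM in TG and 681 ± 12.0 TPM in WT, a 1.42-fold difference, of which the summed Hspa1a and Hspa1b were the larger share.

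The authors' deposited table of their own comparison may count over whole gene spans, introns included, since its length is the end less the start in 100% of rows. Whether its counts hold intron reads was not checked. In that table, where positive means higher in TG, the log2 fold changes were 0.68 for Hspa1a, 0.74 for Hspa1b, 0.51 for Dnajb1, 0.31 for Hsph1, 0.39 for Hspe1, -0.12 for Hsp90ab1 and -0.14 for Hspd1. The 7 genes called here had the same direction and were called there too. The authors' deposited table also calls Hsp90aa1 (0.09, adjusted p = 0.0148) and Hspa8 (-0.04, adjusted p = 0.0215), so that 6 members were higher, against 11.2% of its rows with a fold change, and 3 were lower, against 13.2%. Hspb1 was not called (-0.24, adjusted p = 0.516). For Hsph1 that table names another transcript, and for Hspe1 and Hsph1 its fold change is larger than the one found here. The part of any intron reads in that gap was not tested.

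The rest of the chaperone network was counted from 9 lists of 111 genes, of which 102 were tested. Of those, 4 were higher in TG and 30 lower, against 8.71% and 13.2% of all tested genes, and 15 of the 30 were chaperones of the endoplasmic reticulum (ER). The 102 had a median log2 fold change of -0.07 against -0.01 over all tested genes. Hsf1, which encodes the main activator of the inducible genes, stood at means of 22.0 TPM in TG and 23.2 TPM in WT (log2 fold change -0.07, limma adjusted p = 0.588), and Hsf2 at 5.05 TPM in TG and 5.08 TPM in WT (adjusted p = 0.93). None of the 4 tested heat shock factor genes was called. Transcript level does not measure the activity of HSF1.

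The partners of the HSP70 and HSP90 members were counted list by list, and the background is again 8.71% of tested genes higher and 13.2% lower. Of 9 HSP70 nucleotide exchange and ubiquitin factors 1 was higher in TG (Bag3) and 2 were lower (Hspbp1 and St13). Bag3, a heat-inducible HSP70 partner in selective autophagy, stood at 31.6 TPM in TG and 27.2 TPM in WT (log2 fold change 0.21, limma adjusted p = 0.0339). The Bag3 call was lost with no filter and without TG replicate 2, TG replicate 3, WT replicate 1 or WT replicate 2, with adjusted p from 0.0025 to 0.11 over 14 alternatives. Hspbp1, an exchange factor, stood at 19.1 TPM in TG and 25.0 TPM in WT (-0.38, limma adjusted p = 0.00363). The call of St13 was lost in 10 of 14 alternatives, among them without any 1 library but WT replicate 3 (adjusted p 0.0329 to 0.15). Of 15 other J-domain genes 1 was higher (Dnajc13, log2 fold change 0.20, limma adjusted p = 0.0132) and 1 lower (Dnajc21, -0.31, limma adjusted p = 0.00553). Of 5 tested other cytosolic HSP70 and HSP110 genes none was higher, and 1 was lower, Hspa4, at 45.6 TPM in TG and 51.0 TPM in WT (-0.16, limma adjusted p = 0.0149). Of 19 HSP90 co-chaperones 1 was higher (Ttc4, log2 fold change 0.33, limma adjusted p = 0.0295) and 4 were lower (Fkbp5, Nudc, Fkbp4 and Ahsa1). The most lowered was Fkbp5, an immunophilin induced by glucocorticoids, at means of 10.05 TPM in TG and 16.3 TPM in WT (-0.64, limma adjusted p = 0.000548). Nudc stood at 54.0 TPM in TG and 67.7 TPM in WT (-0.32, limma adjusted p = 0.00187), and Fkbp4 at 52.3 TPM in TG and 59.5 TPM in WT (-0.18, limma adjusted p = 0.00874). The Ttc4 call was lost in 7 of 14 alternatives, among them without any 1 library but WT replicate 3 (adjusted p 0.0025 to 0.091), and the Ahsa1 call in 6, among them without TG replicate 1 or 2 or WT replicate 1 or 3 (0.00368 to 0.0925). None of 3 tested other small heat shock protein genes was called.

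Among the other folding systems the ER chaperones had the most calls, all lower in TG. The background is again 8.71% of tested genes higher and 13.2% lower. Of 14 genes of the cytosolic chaperonin TRiC and of prefoldin, 1 was higher (Pfdn5, log2 fold change 0.14, limma adjusted p = 0.00905) and 4 were lower (Cct6a, Cct3, Cct8 and Pfdn6). Cct6a stood at 49.9 TPM in TG and 61.7 TPM in WT, and Cct3 at 68.2 TPM in TG and 81.0 TPM in WT. The Pfdn6 call was lost in 5 of 14 alternatives, among them without TG replicate 2 or 3 or WT replicate 2 or 3 (adjusted p 0.0162 to 0.0745). Of 15 other mitochondrial chaperones and proteases none was higher and 3 were lower (Hspa9, Grpel1 and Afg3l2), with Hspa9, the mitochondrial HSP70, at 59.6 TPM in TG and 66.7 TPM in WT (-0.16, limma adjusted p = 0.00646). The Grpel1 call was lost in 7 of 14 alternatives, among them without any 1 library (adjusted p 0.0221 to 0.0807), and the Afg3l2 call in 10, among them without any 1 library but TG replicate 1 (0.023 to 0.131). Without 1 library at a time 1 to 2 of these genes were called lower and 0 to 1 higher. Of 18 ER chaperone genes none was higher and 15 were lower, with a median log2 fold change of -0.25. Examples were Hyou1 at 68.7 TPM in TG and 95.9 TPM in WT (-0.48, limma adjusted p = 4.67e-05) and Pdia6 at 200 TPM in TG and 257 TPM in WT (-0.36, limma adjusted p = 3.2e-05). Without 1 library at a time 12 to 14 of the ER chaperone genes were called lower. The Hspa5 call was lost in 5 of 14 alternatives (adjusted p up to 0.186).

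**Figure D5:**
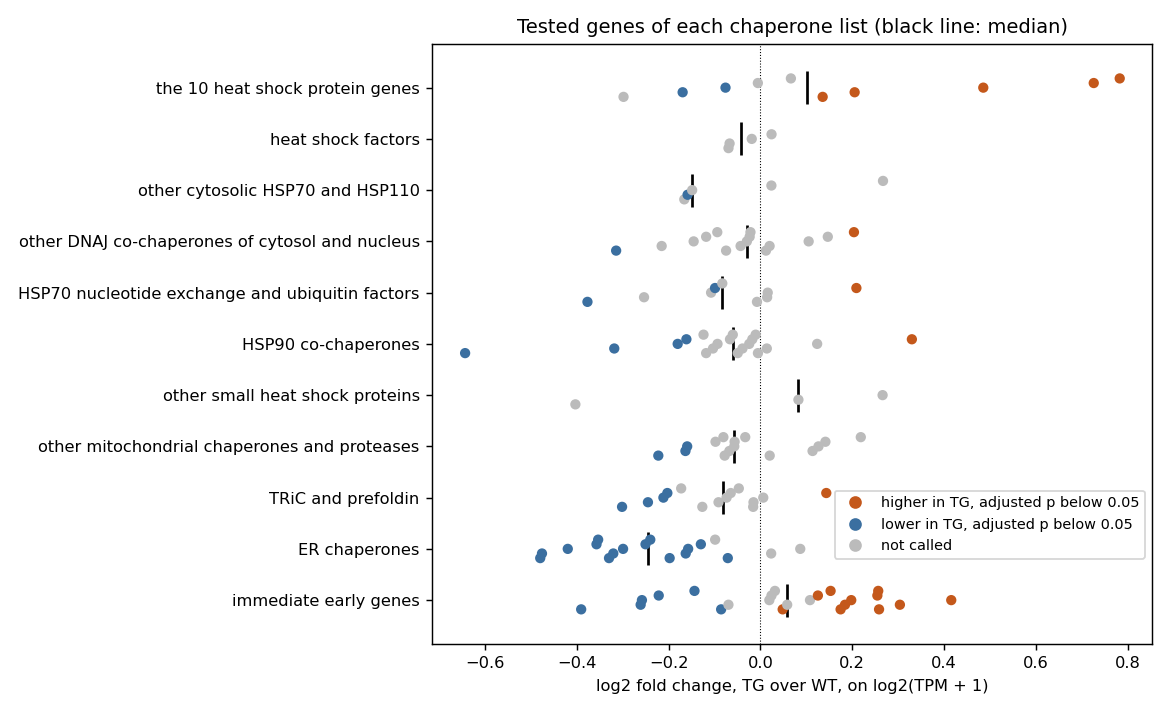
Log2 fold change of TG over WT, on the log2(TPM + 1) scale, of each tested gene of the 10 members and of the other lists, with the list's median as a black line. Orange points were higher in TG, blue points lower, grey points not called; 15 of 18 ER chaperone genes are blue, and the members stand at both sides of 0.

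Immediate early genes, which are switched on within minutes of a stimulus and also during the isolation of cells from tissue, were counted beside the members. Of 23 tested, 11 were higher in TG and 6 lower, against 8.71% and 13.2% of all tested genes, with a median log2 fold change of 0.06. Those higher included Atf3 at 901 TPM in TG and 675 TPM in WT (log2 fold change 0.42, limma adjusted p = 3.77e-06), Zfp36 at 2438 TPM in TG and 2041 TPM in WT (0.26, limma adjusted p = 2.97e-06) and Fos at 2415 TPM in TG and 2140 TPM in WT (0.17, limma adjusted p = 1.68e-05). Those lower included Nr4a2 at 60.2 TPM in TG and 79.2 TPM in WT (-0.39, limma adjusted p = 0.000302), Ier3 at 485 TPM in TG and 582 TPM in WT (-0.26, limma adjusted p = 4.47e-05) and Jund at 611 TPM in TG and 730 TPM in WT (-0.26, limma adjusted p = 0.00307). Their part in the result for the heat shock genes was not tested.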

How the data were processed

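RNA-seq was made from polyadenylated RNA out of 20 ng of total RNA, per the labels' protocols; strand is not mentioned there. Per the submitters' processing notes bcl2fastq, STAR, HOMER 4.11.1 and DESeq2 were used with build mm10; the sources used here do not give settings. The authors deposited TPM per RefSeq transcript (25124 rows), per the file headers, and a table of their own comparison with log2 fold changes and p-values. TPM columns summed to 543612 to 545319, so the authors' scaling total held more than these rows. TPM was multiplied by length and divided by a step fitted for each library. All values checked, of up to 1000 reads and with a TPM rounding error under 0.1 reads, came out whole. The tolerance was 0.1 reads plus that rounding error. This gave 13973424 to 15063958 reads in genes per library, out of header totals of 17247798 to 18904786.

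The 12633 genes that averaged 1 TPM or more in TG or in WT were fitted with limma 3.58.1 (trend, R 4.3.3) on log2(TPM + 1), TG against WT over 6 libraries, with Benjamini-Hochberg adjustment; a fold change on this scale understates that of low genes. The limma fit was tried on simulated reads with counting noise only. Libraries of the same group differed by more than that (chi-square per degree of freedom 2.06 to 2.75), so the simulation does not give the error rate here. The planned count models were not run; limma-voom on the recovered reads was run in their place. No pair of libraries was a duplicate: the chi-square per degree of freedom was at least 2.06. The deviations of same-numbered TG and WT libraries correlated by 0.028, 0.011 and 0.003 over 8810 genes, and those of differently numbered ones by -0.061 to 0.053. No pairing by number was seen, but these values cannot exclude one, since the spread within groups may be technical.

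The members and lists were chosen with earlier results of these data known, so counts over them are descriptions. Named were all members, Nfil3, Hsf1, Hsf2, up to 3 genes of each list with the lowest p, and the 3 genes most like the members with the highest and lowest fold change; any others were chosen after their values were seen. Promoters are from RefSeq, GRCm38.p6. Overlaps, pseudogenes and the transcripts compared for likeness are from GENCODE M21.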

Additional observations from a re-analysis of the deposited data

How the results depend on the processing

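The calls of Hspa1a, Hspa1b, their sum, Dnajb1, Hspe1 and Hspd1 kept direction and side of the threshold in all 14 alternatives run, with log2 fold changes of 0.71 to 0.76 for Hspa1a, 0.74 to 0.82 for Hspa1b, 0.47 to 0.52 for Dnajb1, 0.19 to 0.24 for Hspe1 and -0.19 to -0.13 for Hspd1. Hspa8 turned to 0.032 with upper-quartile scaling, 0.0125 with median-ratio and 0.0114 with trimmed mean scaling, and 0.0004 in limma-voom on recovered reads, and was called in none of these. Of genes that were not called, 5 changed sign when 1 library was left out: Hsf1 ranged from -0.154 to 0.0145, Hsf2 from -0.112 to 0.109 (0.0124 with upper-quartile scaling), Hsf4 from -0.160 to 0.0238, Hsbp1 from -0.0135 to 0.0462 and Hspb6 from -0.0146 to 0.203. With upper-quartile scaling 1 member was called lower, against 2, and without 1 library at a time 1 to 2. The related chaperone genes called higher numbered 2 with no filter, against 4, and 2 to 4 without 1 library at a time. Those called lower numbered 23 to 27 without 1 library at a time, against 30. Over all genes 704 to 883 were called higher without 1 library, against 1100, and the lower end came from leaving out TG replicate 2 (704) or TG replicate 3 (721); 1231 to 1373 were called lower, against 1666. The cause of these changes was not tested, beyond the fewer samples. With the replicate number as a block 922 genes were called higher and 1457 lower, and 4 members higher and 2 lower, Hsph1 being the call lost. No label pairs the samples by number. The planned edgeR, TMM and DESeq2 alternatives were not run; limma-voom on the recovered reads and own scaling code stood in for them. Median-ratio and trimmed mean scaling, limma-voom and the ratios were chosen after seeing the data. Hspb1, at 37 to 69 reads, is the member with the fewest reads, and an exact test of 3 against 3 libraries cannot go below 0.1.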

Other observations

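The genes whose pattern over the 6 libraries was most like that of Hspa1b were found by the root mean square difference of log2(TPM + 1), each gene centred on its own mean. The search covered 8598 tested genes of at least 5 mean TPM, with predicted genes named Gm or Rik left out. The 3 most alike were Dpp4 (difference 0.0299), Hspa1a (0.0426) and Klrb1b (0.0528). This scale shrinks the differences of low genes such as Dpp4. Its ratio of means was 1.92 against 1.72 for Hspa1b, while their log2 fold changes on this scale were 0.784 and 0.783. The order of likeness on another scale was not tested. Dpp4 stood at 6.97 ± 0.227 TPM in TG and 3.63 ± 0.155 TPM in WT, and Klrb1b at 21.2 ± 1.26 TPM in TG and 12.3 ± 0.428 TPM in WT (SD, n = 3 each). For Hspb1, the member with the lowest fold change, the 3 most alike of 8599 genes were Spata5l1 (0.133), Serpinb2 (0.134) and C1qtnf12 (0.152), none of which was called. Likeness was measured over 6 libraries that share their groups and is a description.

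Hspa1b varied by 0.804% in TG and by 4.87% in WT (coefficient of variation, n = 3 each), and Hspa1a by 0.960% in TG and 1.49% in WT. The WT spread of Hspa1b comes from WT replicate 2, and the difference between the copies was not tested.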
